A study of Homo sapiens with 8 samples.

Results

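The comparison described here sets A2780 cells labelled as treated with temsirolimus for 24 h against untreated A2780 cells, and uses 4 of the 8 arrays of the series. Its members were chosen by their sample titles: 2 arrays of untreated A2780 (replicates 1 and 2) and 2 arrays of A2780 with temsirolimus for 24 h (replicates 1 and 2). A2780 is an established human ovarian carcinoma cell line. Temsirolimus is an ester of rapamycin that is given as a cancer drug. Total RNA was hybridised to Affymetrix Human Gene 1.0 ST arrays, which carry 1 labelled sample each and probes along the exons of each gene. The other 4 arrays, 2 of untreated A2780CP20, a subline of A2780, and 2 of A2780 with temsirolimus for 48 h, shared the estimate of the spread and served as further points of reference. Culture was in RPMI with 10% FBS throughout, and temsirolimus came from a stock dissolved in DMSO. The dose is not given in the labels, nor is it stated whether the untreated cells received DMSO. The labels do not state whether the replicates came from different cultures, and every p-value is therefore relative to the spread of these arrays, which may be technical.

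mTORC1 is a kinase complex that couples growth factor and amino acid supply to protein synthesis, ribosome production and lipid synthesis, and holds back autophagy. Temsirolimus and rapamycin bind the immunophilin FKBP12, encoded by FKBP1A, and the pair docks onto MTOR beside its catalytic cleft, which blocks phosphorylation of S6 kinase and, less completely, of the translation repressor 4E-BP1. In epithelial tumours such drugs are mainly known for slowing growth rather than killing cells, and release of feedback onto receptor tyrosine kinases is a familiar part of the response.

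The 24 h arrays stood apart from the other arrays of the series. Values were log2 intensities, and the array medians lay between 6.66 and 6.72. Each gene was represented by 1 probe set, which left 18417 genes. Across genes, the 24 h arrays correlated with each other at r = 0.997 and with every other array at r = 0.950 to 0.952, whereas the 48 h arrays reached r = 0.994 to 0.996 with untreated A2780. No test is attached to these values, since genes are not independent of each other. The SD over genes of the difference between the 2 arrays of a group was 0.17 at 24 h and 0.18 in untreated cells. The SD of the change in group means from untreated to 24 h was 0.65, against 0.18 for the change from untreated to 48 h. All changes below rest on this pair of arrays and are given under their label, and whether these arrays hold the labelled sample was not tested.

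The labelled cell type was examined with 10 genes used as markers of ovarian carcinoma, epithelial cells or mesenchymal cells. In the comparison 8 of the 10 were not called, where 30.1% of all genes were called. Not being called does not identify the cell type. VIM, the intermediate filament of mesenchymal cells, was bright on all 4 arrays, at 12.81 and 12.75 untreated and 12.90 and 12.91 at 24 h. PAX8, a factor of the Mullerian lineage, measured 7.06 and 6.78 untreated and 6.74 and 6.49 at 24 h, and WT1, a factor of serous ovarian carcinoma, 6.32 and 6.21 against 6.40 and 5.77. The mucin gene MUC16 (CA125), the keratin genes KRT7 and KRT19 and the E-cadherin gene CDH1 measured at most 6.63 on these 4 arrays, under the median of every array. Neither PAX8, WT1, MUC16, KRT7, KRT8, KRT19, CDH1 nor VIM was called in the comparison, which does not show that their levels were equal. EPCAM and KRT18 differed and are described below. Because whole cultures were measured, a shift in the proportion of cell types and a shift in RNA per cell cannot be told apart.

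Differences were tested for all genes with limma, with Benjamini-Hochberg adjustment, and genes with an adjusted p under 0.05 are referred to as called. Of 18417 genes, 5551 (30.1%) were called, 2738 higher (14.9%) and 2813 lower (15.3%) at 24 h. These shares include genes that were dim on every array, which many of the gene lists below do not hold. The median absolute change over all genes was 0.20 on the log2 scale, the 90th percentile was 0.78 and the 99th was 2.88. Changes of at least 4-fold were called for 377 genes (2.05%), 182 higher (0.988%) and 195 lower (1.06%). Changes of at least 8-fold were called for 170 genes (0.923%), 77 higher (0.418%) and 93 lower (0.505%), and those of at least 32-fold for 16 higher (0.0869%) and 15 lower (0.0814%). The arrays of the groups did not overlap for 12156 genes (66%), a count that includes very small differences. The count of 5551 was 3621 without 24 h replicate 1, and the count of higher genes was 1742 without untreated replicate 1, 1727 without 24 h replicate 1 and 1760 without 24 h replicate 2. The number of called genes that changed at least 2-fold was 1180 (6.41%), 529 higher (2.87%) and 651 lower (3.53%), and it was 1184 to 1203 with any 1 of the 4 arrays left out.

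**Figure D1:**
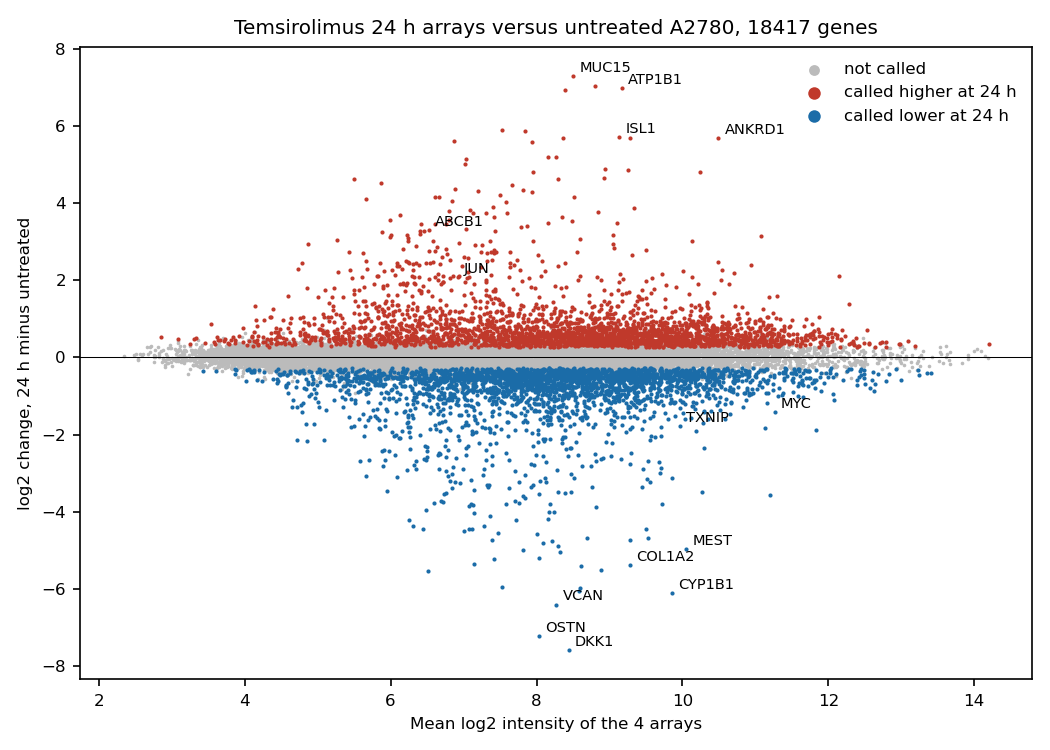
Change of each of 18417 genes (24 h minus untreated, log2, vertical axis) against its mean log2 intensity over the 4 arrays (horizontal axis), with called genes in red (higher) and blue (lower) and others in grey. Called genes lie at all intensities above the dimmest, and the largest changes reach 7.30 (MUC15) and -7.59 (DKK1).

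MUC15, a membrane mucin, measured 4.86 and 4.85 on the untreated arrays and 12.18 and 12.13 at 24 h, a change of 7.30 ± 0.09 (SE of the limma fit, n = 2 arrays a group, adjusted p = 2.17e-09). CLDN1, a strand protein of tight junctions, measured 5.24 and 5.33 untreated and 12.32 on both 24 h arrays (7.04 ± 0.14, adjusted p = 9.67e-09). ATP1B1, the beta subunit of the sodium pump, went from 5.65 and 5.71 to 12.70 and 12.62. In each of these genes the untreated arrays sat near the dim end of the array and the 24 h arrays near the bright end. Another tight junction gene, CLDN16, which forms a cation pore in the kidney, measured 5.50 and 5.54 untreated and 11.19 and 11.22 at 24 h. MID1, an E3 ligase of microtubules, measured 4.91 and 4.95 against 11.85 and 11.87. ISL1, a homeobox factor of motor neurons and pancreas, measured 6.15 and 6.41 against 11.97 and 12.01.

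Other genes among the 30 largest rises included the YAP/TEAD partners and targets VGLL3 (6.43 and 6.45 untreated, 12.12 on both 24 h arrays) and ANKRD1 (7.73 and 7.58 against 13.32 and 13.34). ANKRD1 was well above the dim range in untreated cells, so its rise of 5.67 ± 0.11 is not bounded by background. The matrix protease gene MMP3 was likewise measurable before treatment, at 7.94 and 7.75, and reached 12.64 on both 24 h arrays (4.80 ± 0.11). The sodium channel gene SCN9A (5.58 ± 0.13), the caveolar coat gene CAVIN2 (5.20 ± 0.12), the polycomb gene PCGF5 (5.03 ± 0.11), the bHLH-PAS factor SIM1 (4.81 ± 0.09), the thymocyte factor TOX (4.64 ± 0.13), the receptor kinase gene MUSK of the neuromuscular junction (4.32 ± 0.12) and the ERBB ligand gene NRG1 (4.22 ± 0.10) followed.

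DKK1, a secreted WNT antagonist, measured 12.16 and 12.31 untreated and 4.42 and 4.87 at 24 h (-7.59 ± 0.14, adjusted p = 9.32e-09). OSTN, a small secreted peptide of bone and muscle, measured 11.59 and 11.69 against 4.28 and 4.58, and VCAN, a large matrix proteoglycan, 11.46 and 11.49 against 5.06 and 5.08. Each was far above the array medians in untreated cells and far below them on both 24 h arrays. CYP1B1, a cytochrome P450 that oxidises oestrogens and polycyclic hydrocarbons, measured 12.97 and 12.84 untreated and kept a level of 6.76 and 6.84 at 24 h. MEST, an imprinted hydrolase gene, measured 12.53 on both untreated arrays and 7.87 and 7.26 at 24 h. SNAI2, a repressor of epithelial genes, went from 11.62 and 11.56 to 5.39 and 5.83.

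Further genes among the 30 largest falls were the protocadherin gene PCDH20 (9.87 and 9.79 untreated, 4.62 and 4.31 at 24 h), the axon guidance receptors EPHA3 (10.71 and 10.74 against 5.90 and 5.80) and ROBO2 (10.53 and 10.48 against 5.65 and 5.72), and PCOLCE, which enhances procollagen cleavage (11.86 and 11.87 against 7.22 and 7.17). IFIH1, a cytosolic sensor of viral RNA, fell by 4.58 on the log2 scale, the transcription factor gene MEF2C by 4.76, the chromatin organiser gene SATB1 by 4.49 and the steroid reductase gene AKR1C3 by 4.72. AKR1C3 has close relatives, AKR1C1 and AKR1C2, whose probes may share signal. In all of these genes both 24 h arrays lay below both untreated arrays, which the choice of genes without overlap required.

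**Figure D2:**
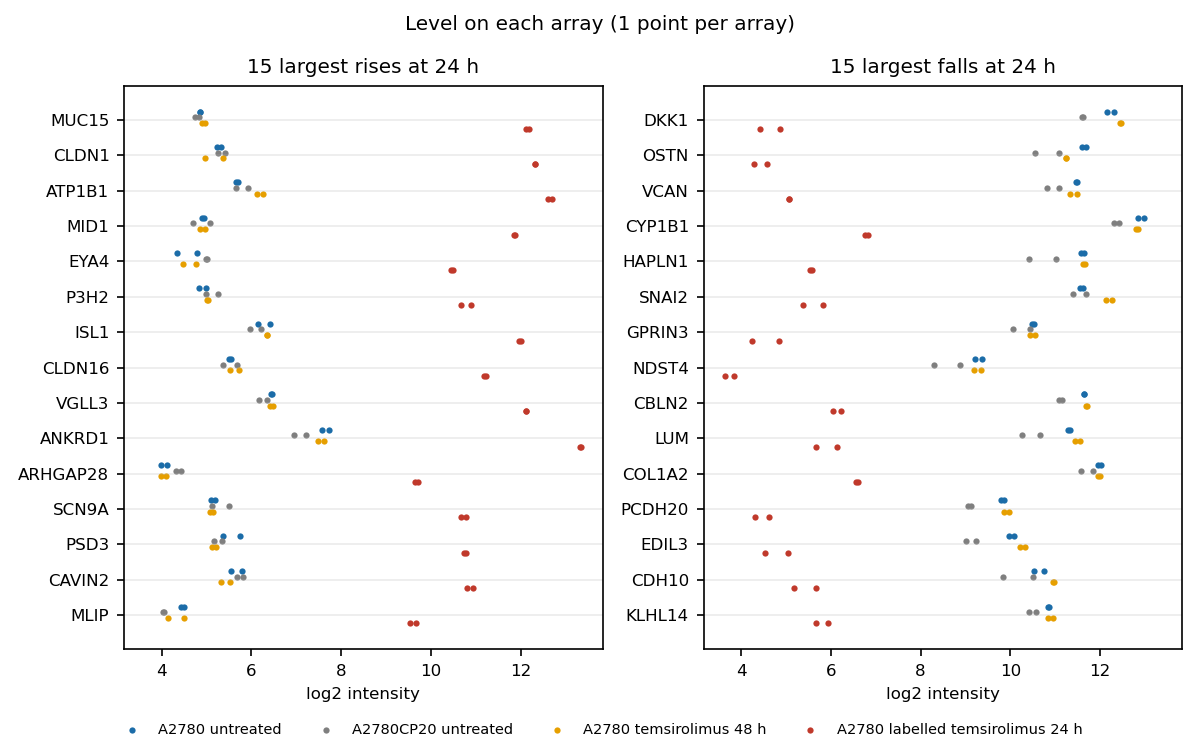
Log2 intensity (horizontal axis) of the 15 genes with the largest rises (left) and falls (right) at 24 h, 1 point per array, coloured by group. The 24 h arrays (red) lie apart from all 6 other arrays in every gene shown, for example 12.18 and 12.13 against 4.74 to 4.97 for MUC15.

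Some of these genes crossed the range in which signal over background is not known, taken here as below 5.03, which was the smallest of the lower quartiles of the 8 arrays. Of all genes, 14 were below 5.03 on both untreated arrays and more than 3 log2 units above it on both 24 h arrays. They were ABCB1, ANXA1, ARHGAP28, DYNLT3, EYA4, MID1, MLIP, MUC15, P3H2, PCGF5, PRKAA2, SPART, TRAPPC3L and VPS13C. The reverse held for 13: ADGRL3, CALB1, DKK1, GPRIN3, IDO1, IDO2, LINC00518, MORC1, NDST4, OSTN, PCDH20, SATB1 and TFPI. Changes of such genes may be understated, and their order is uncertain. ANXA1, an annexin that restrains inflammation, measured 4.72 and 4.35 untreated and 8.71 and 8.67 at 24 h. PRKAA2 encodes a catalytic subunit of AMPK, a kinase that opposes mTORC1, and rose by 4.17.

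Promoters of the genes at both ends are shown so that the range of CpG content behind the largest changes can be read. Each sequence is the 250 bases before the start of the gene, from RefSeq on GRCh38.p14, on the gene's own strand, 5′ to 3′, with CpG dinucleotides in capitals. CLDN1 (chr3:190322447-190322696, minus strand) held 28 CpG, MID1 (chrX:10833684-10833933, minus strand) 6, DKK1 (chr10:52314031-52314280, plus strand) 18 and OSTN (chr3:191198991-191199240, plus strand) 2.
CLDN1: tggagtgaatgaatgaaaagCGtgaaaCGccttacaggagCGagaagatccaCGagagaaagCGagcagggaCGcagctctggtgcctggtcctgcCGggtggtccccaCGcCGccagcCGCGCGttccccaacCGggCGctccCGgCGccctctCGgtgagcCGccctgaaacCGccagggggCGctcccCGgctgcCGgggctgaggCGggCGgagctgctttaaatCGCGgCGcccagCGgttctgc
MID1: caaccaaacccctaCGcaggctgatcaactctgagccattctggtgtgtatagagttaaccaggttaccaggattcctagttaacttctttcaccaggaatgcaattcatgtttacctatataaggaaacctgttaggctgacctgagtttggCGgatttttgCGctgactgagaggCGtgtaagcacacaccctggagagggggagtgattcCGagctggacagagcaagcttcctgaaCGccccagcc
DKK1: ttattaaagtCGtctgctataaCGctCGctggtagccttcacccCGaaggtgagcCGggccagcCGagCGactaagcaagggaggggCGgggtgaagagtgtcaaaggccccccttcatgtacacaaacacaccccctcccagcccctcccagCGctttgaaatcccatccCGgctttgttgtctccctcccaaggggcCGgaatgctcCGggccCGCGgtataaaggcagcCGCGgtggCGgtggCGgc
OSTN: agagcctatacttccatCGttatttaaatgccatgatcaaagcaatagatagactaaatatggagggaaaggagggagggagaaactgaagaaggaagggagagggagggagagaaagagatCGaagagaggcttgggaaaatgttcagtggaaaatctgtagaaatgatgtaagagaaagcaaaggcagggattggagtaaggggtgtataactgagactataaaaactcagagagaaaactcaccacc

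A window was counted as CpG-rich when it held at least 50% G and C and an observed over expected CpG ratio of at least 0.6. Of the 14237 genes with a promoter in the RefSeq table, 62.3% were CpG-rich. The share was 79.0% among called genes less than 2-fold higher and 74.7% among those less than 2-fold lower. It was 56.9% among genes that were not called, 58.7% of 63 among genes at least 8-fold higher, 51.5% of 66 among genes at least 8-fold lower, 7 of 14 among genes at least 32-fold higher and 2 of 8 among genes at least 32-fold lower. The letters TATAAA were also searched on both strands in the last 50 bases before the start. They were found in 4.19% of all promoters, in 3.17% of those at least 8-fold higher and in 12.1% (8 genes) of those at least 8-fold lower, DKK1 and OSTN among them. These shares describe the windows and were not tested, and a match is not a binding site.

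MTOR measured 9.32 and 9.38 untreated and 9.18 and 9.17 at 24 h, a difference of -0.17 ± 0.10 that was not called (adjusted p = 0.259). FKBP1A, the gene of the drug's binding partner FKBP12, measured 10.49 and 10.65 against 10.74 and 10.72 (adjusted p = 0.326). RPS6KB1, the S6 kinase gene, the repressor gene EIF4EBP1 and the tumour suppressor gene TSC2 were not called either. RPTOR, the scaffold of mTORC1, fell from 8.76 and 8.84 to 8.08 and 8.07 (-0.72 ± 0.09, adjusted p = 0.000309), while RPS6KB2, a second S6 kinase gene, rose by 0.56 ± 0.10. Of 43 measured genes for the mTOR complexes and their PI3K-AKT input, 7 rose and 9 fell (37.2% called, against 30.1% of all genes). The count of lower genes was 14 in the fit of only these groups and 16 without the A2780CP20 arrays. None of the 43 lay under 5.03 on any array, whereas the share of all genes includes such dim genes.

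IRS1, the adaptor of the insulin receptor, measured 6.75 and 7.02 untreated and 5.54 and 5.42 at 24 h (-1.40 ± 0.13). The regulatory subunit genes PIK3R1 (-0.85 ± 0.11) and PIK3R3 (-1.10 ± 0.10) fell, and the catalytic subunit gene PIK3CB rose by 0.91 ± 0.13. RRAGD, a Rag GTPase that brings mTORC1 to lysosomes, rose by 0.81 ± 0.13, and DDIT4, a stress-induced inhibitor of mTORC1, by 0.62 ± 0.12. SESN1, another inhibitor, was at -1.05 ± 0.10. RICTOR, the defining subunit of mTORC2, was at -0.64 ± 0.15 (adjusted p = 0.0117), but that call was lost when single arrays were left out.

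Translation factors moved in both directions. Of 37 initiation factors and regulators, 12 rose and 7 fell (51.4% called, against 30.1% of all genes), with a median change of 0.14. PDCD4, which blocks the helicase eIF4A and is degraded when S6 kinase is active, measured 10.60 and 10.73 untreated and 7.91 and 7.89 at 24 h (-2.77 ± 0.10). EIF4B, a cofactor of that helicase, fell from 13.03 and 13.09 to 12.17 and 12.21. The eIF3 subunit genes EIF3K (-0.76 ± 0.09), EIF3F (-0.74 ± 0.10) and EIF3D (-0.53 ± 0.08) were lower too. EIF2S1, the regulated subunit of eIF2, rose by 1.00 ± 0.09, EIF5, its GTPase activator, by 1.01 ± 0.09, EIF2B3, a subunit of its exchange factor, by 0.99 ± 0.11, and EIF4E3, a relative of the cap-binding protein, by 1.12 ± 0.12.

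Ribosomal protein genes and the factors that build ribosomes differed in direction. Of 61 cytosolic ribosomal protein genes, 4 rose and 19 fell (37.7% called, against 30.1% of all genes), with a median of -0.17. None of the 61 lay under 5.03 on any array, whereas 10.8% of all genes did so on all 8 arrays. These shares therefore compare unlike genes. Many ribosomal protein genes have processed pseudogenes, so single members are uncertain. RPL22 measured 9.45 and 9.34 untreated and 7.85 and 7.87 at 24 h, and its paralogue RPL22L1 went the other way, from 7.16 and 7.18 to 9.59 and 9.64 (2.44 ± 0.11). RPL31 (-0.98 ± 0.10) and RPL29 (-0.78 ± 0.11) fell, and RPL39L, a retrotransposed copy of RPL39, rose by 0.72 ± 0.12. The 19 lower genes became 10 without untreated replicate 2 and 10 without 24 h replicate 1 or 2, and the 4 higher genes became 2 without untreated replicate 1 or without 24 h replicate 1 or 2.

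Of 65 ribosome biogenesis factors, 32 rose and 3 fell (53.8% called), with a median of 0.33 against 0.01 over all genes. POLR3G, a subunit of RNA polymerase III, measured 8.52 and 8.66 untreated and 10.23 and 10.14 at 24 h. LYAR, RRP9 and RRP12, nucleolar factors of ribosomal RNA maturation, rose by 1.21 ± 0.11, 1.19 ± 0.14 and 1.01 ± 0.09, and the helicase gene DDX10 by 0.99 ± 0.14. The 3 lower genes became 1 without untreated replicate 1 or 24 h replicate 1, and 5 with an intensity trend in the prior. Among genes for small nucleolar RNAs, which guide modification of ribosomal RNA, 54 of 175 were higher and 7 lower, with a median of 0.19. The share called was 34.9%, against 30.1% of all genes. Among 173 microRNA genes, 12 were higher and 12 lower (13.9% called, under the share of all genes).

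The list with the highest median was the proteasome, the protease that degrades ubiquitinated proteins. Of 41 subunit genes, limma called 29 higher and 0 lower (33 and 1 at an unadjusted p under 0.05), with a median of 0.47, and the share called was 70.7% against 30.1% of all genes. The core subunit genes PSMA5 (10.59 and 10.53 untreated, 11.42 and 11.46 at 24 h) and PSMA3 (9.62 and 9.79 against 10.57 and 10.58) and the lid and base genes PSMD11 (0.86 ± 0.09), PSMD3 (0.81 ± 0.09) and PSMC1 (0.81 ± 0.09) rose. The 29 became 19 without 24 h replicate 2, and 1 gene was called lower with an intensity trend in the prior. In heat shock and unfolded protein genes, 15 of 45 rose and 5 fell (44.4% called). The chaperone gene HSPA4L, a member of the HSP110 family, rose from 9.21 and 9.33 to 11.15 and 11.19, and DNAJC12 fell from 8.36 and 8.45 to 4.99 and 5.44. The 15 became 9 without untreated replicate 1 or without 24 h replicate 1 or 2.

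Genes of amino acid charging and supply were more often higher than lower. Of 19 cytosolic aminoacyl-tRNA synthetase genes, 12 rose and 1 fell (68.4% called, against 30.1% of all genes), with a median of 0.34. FARSB, the beta subunit of the phenylalanine enzyme, measured 10.29 and 10.34 untreated and 11.46 and 11.47 at 24 h. QARS1, the glutamine enzyme, was the member that fell (-0.92 ± 0.09). The 12 became 6 without untreated replicate 1 or 2, 7 without 24 h replicate 1 and 6 without 24 h replicate 2, and 2 genes were called lower with quantile normalization, without the dimmest genes, with an intensity trend and without the A2780CP20 arrays. Of 37 ATF4 targets and amino acid supply genes, 15 rose and 5 fell (54.1% called). SLC7A11, the cystine importer, measured 5.33 and 5.59 against 7.91 and 7.86 (2.43 ± 0.13), and the glutamine transporter gene SLC38A1 rose by 1.05 ± 0.10, while the neutral amino acid transporter gene SLC43A1 was at -1.53 ± 0.09. The 15 became 9 without untreated replicate 1, 8 without 24 h replicate 1 and 9 without 24 h replicate 2.

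**Figure D3:**
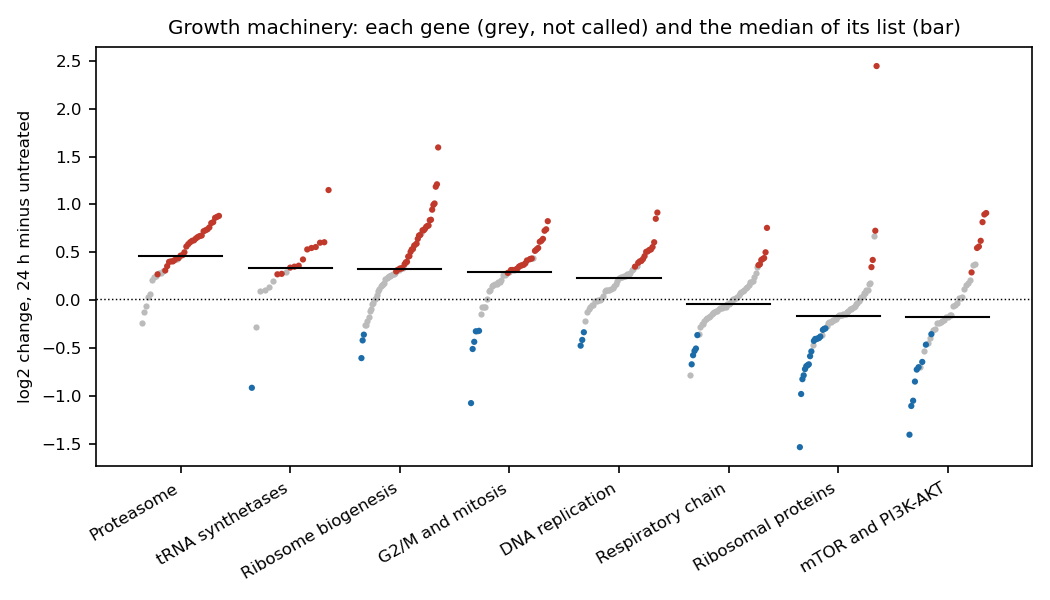
Log2 change (24 h minus untreated) of every measured gene in 8 lists of growth machinery, 1 point per gene, with called genes in red (higher) or blue (lower), others in grey and the list median as a bar. The medians fall from 0.47 for proteasome subunits to -0.17 for mTOR complexes and their PI3K-AKT input, and RPL22L1 (2.44) lies far above the other ribosomal protein genes.

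Regulators of cell cycle entry were lower on balance, while genes of S phase and mitosis were higher. MYC, a driver of growth genes, measured 12.00 and 11.94 untreated and 10.55 and 10.56 at 24 h (-1.42 ± 0.13, adjusted p = 7.83e-05). CCND1, which encodes cyclin D1, fell from 10.40 and 10.30 to 9.54 and 9.56, and CDK6, its partner kinase, from 7.50 and 7.59 to 5.74 and 5.66. The inhibitor genes moved both ways: CDKN1B fell from 10.45 and 10.50 to 9.34 and 9.31 and CDKN1A by 0.50, while CDKN2A rose by 0.73 ± 0.10. Of 35 genes of G1 cyclins, kinases and inhibitors, 6 rose and 12 fell, CCNG2, a cyclin of quiescent cells, among them (-1.85 ± 0.11). The share called was 51.4%, against 30.1% of all genes.

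Of 49 genes of G2/M and mitosis, 22 rose and 5 fell (55.1% called), with a median of 0.30. KIF2C, a microtubule depolymerase, measured 9.40 and 9.61 untreated and 10.29 and 10.37 at 24 h, and the anaphase activator gene CDC20 and the kinase gene PLK1 rose by 0.74 ± 0.10 and 0.73 ± 0.13. CENPF, a kinetochore protein, fell from 11.14 on both arrays to 10.07 and 10.06. The 22 became 7 without untreated replicate 1, 10 without untreated replicate 2 and 7 without 24 h replicate 1 or 2, and the 5 became 1 without untreated replicate 2 and 2 without untreated replicate 1 or without 24 h replicate 1 or 2. Of 49 replication genes, 14 rose and 3 fell (34.7% called, against 30.1% of all genes). None of these 49 lay under 5.03 on any array, so the shares compare unlike genes. RRM2, a ribonucleotide reductase subunit, was at 0.85 ± 0.11. The 14 became 7 without untreated replicate 1, 8 without untreated replicate 2, 6 without 24 h replicate 1, 9 without 24 h replicate 2 and 22 without the A2780CP20 arrays. The 3 became 1 without untreated replicate 2 or 24 h replicate 1.

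PMAIP1 (NOXA), which encodes a killer protein of the BCL2 family, measured 5.57 and 5.60 untreated and 7.22 and 7.30 at 24 h. Initiator and executioner caspases rose as well, CASP8 by 1.48 ± 0.11, CASP6 by 1.25 ± 0.11 and CASP9 by 1.24 ± 0.10. In the list of BCL2 family and caspase genes 10 of 27 rose and 4 fell (51.9% called, against 30.1% of all genes). The 10 became 5 without untreated replicate 2 and 6 without 24 h replicate 2, and the 4 became 2 without untreated replicate 1 or 24 h replicate 2.

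Lipid and sugar metabolism showed single large changes without a common direction. In 30 genes of fatty acid synthesis and storage, 9 rose and 9 fell (60.0% called, against 30.1% of all genes). CD36, a fatty acid importer, measured 5.32 and 5.18 untreated and 9.02 and 8.99 at 24 h. ME1, which supplies NADPH, rose by 1.69 ± 0.09 and the desaturase gene FADS2 by 1.29 ± 0.13, while the elongase gene ELOVL6 was at -1.19 ± 0.11 and MID1IP1, an activator of acetyl-CoA carboxylase, at -2.48 ± 0.11. SREBF2, the master factor of sterol synthesis, fell from 9.63 and 9.69 to 8.82 and 8.89. ABCA1, the cholesterol exporter, fell from 9.39 on both arrays to 7.31 and 7.35, and STARD4, a sterol carrier, rose from 10.41 on both arrays to 11.98 and 11.97.

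In 40 genes of glycolysis and the hypoxia response, 12 rose and 8 fell, and the 8 became 5 without untreated replicate 1 or 2 or 24 h replicate 2. ENO2, the neuronal enolase, measured 6.53 and 6.31 untreated and 9.81 and 10.00 at 24 h, whereas the glucose transporter gene SLC2A3 fell from 12.80 and 12.74 to 10.75 and 11.05. TXNIP, a glucose-responsive brake on glucose uptake, measured 10.90 and 10.81 untreated and 9.16 and 8.99 at 24 h. In 54 lysosome and autophagy genes, a process that mTORC1 restrains, 17 rose and 13 fell (55.6% called). GLA, the alpha-galactosidase, rose from 8.53 and 8.62 to 10.29 and 10.33, and the cathepsin gene CTSZ from 6.44 and 6.42 to 8.10 and 8.25. Cathepsin F (CTSF) fell by 1.55, the autophagy genes UVRAG by 0.96 and WIPI1 by 0.97. Of 55 nuclear genes of the respiratory chain, 12 were called, 21.8%, against 30.1% of all genes. The 7 higher became 1 without untreated replicate 1, 4 without untreated replicate 2, 3 without 24 h replicate 1, 2 without 24 h replicate 2 and 4 with quantile normalization, and the 5 lower became 2 to 9 over the settings.

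Of 32 genes for epithelial junctions and surface proteins, 10 rose and 1 fell (34.4% called). Of 22 keratin and mucin genes 2 were called, and of 20 claudins 4, both under the 30.1% of all genes. CXADR, an adhesion molecule of tight junctions, measured 6.57 and 6.49 untreated and 10.16 and 10.19 at 24 h (3.65 ± 0.10, adjusted p = 3.36e-08). EPCAM, an adhesion molecule of carcinomas, went from 5.45 and 5.68 to 7.67 and 7.80, and DSG2, a desmosomal cadherin, from 5.79 and 5.98 to 8.07 and 7.93. Both 24 h arrays lay above both untreated arrays in each. LSR, a protein of tricellular junctions, rose by 2.02 ± 0.10. The single member that fell was MPZL2 (-2.02 ± 0.24), and 2 were called lower with an intensity trend in the prior. KRT18 rose from 7.55 and 7.61 to 10.55 and 10.48, a value made uncertain by its many pseudogenes, whereas its partner KRT8 was not called (6.50 and 6.48 against 6.65 and 6.71). CDH1 lay between 5.19 and 5.46 on all 4 arrays.

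Of 27 transcription factors of epithelial-mesenchymal transition and classical cadherins, 9 fell and 2 rose (40.7% called, against 30.1% of all genes). Beside SNAI2, TWIST1 fell from 10.10 and 10.01 to 8.51 and 8.53 and the N-cadherin gene CDH2 from 10.30 and 10.33 to 8.86 and 8.95. The 2 that rose did so by at most 0.51. They became 0 without untreated replicate 1 or 24 h replicate 1, 1 without untreated replicate 2 and 1 without the dimmest genes. Of 32 contractile and mesenchymal genes, 13 fell and 5 rose (56.25% called). The 5 became 3 without 24 h replicate 1 and 3 without the dimmest genes. NES (-2.83 ± 0.11), an intermediate filament of progenitors, S100A4 (-2.65 ± 0.17) and the fibroblast protease gene FAP (-2.80 ± 0.13) fell. TAGLN, an actin-binding protein of smooth muscle, went the other way, from 9.58 and 9.50 to 10.92 and 10.89. The largest change of this list was also a rise, that of ANXA1 (4.155), which was under 5.03 on both untreated arrays.

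Matrix genes had a median of -0.19 over 68 glycoproteins and proteoglycans, of which 28 fell and 8 rose (52.9% called, against 30.1% of all genes). Without the dimmest 25% of genes the median was -0.42. Fibrillar collagen genes COL1A2 (11.95 and 12.01 untreated, 6.61 and 6.57 at 24 h) and COL3A1 (11.95 and 12.05 against 8.44 and 8.61) fell, as did LUM, a proteoglycan that spaces collagen fibrils, by 5.40, and LOX, which crosslinks collagen, by 4.03. Other matrix genes rose: COL11A1 by 2.46 ± 0.10, the microfibril gene FBN1 from 5.78 and 5.77 to 8.38 and 8.33, the laminin gene LAMA2 by 2.24 ± 0.11 and POSTN from 9.65 and 9.83 to 12.14 on both arrays. Among 37 collagen chains in all, 4 rose and 4 fell, with a median of 0.12. The share called was 21.6%, under the 30.1% of all genes. Of 39 matrix proteases and inhibitors, 8 rose and 9 fell (43.6% called). Collagenase and stromelysin genes rose, MMP1 from 6.35 and 5.99 to 9.55 and 9.61 and MMP10 from 9.54 and 9.51 to 11.50 and 11.54, together with the inhibitor gene TIMP1 (11.08 and 11.11 against 13.21 and 13.20), while the inhibitor gene TIMP3 was at -1.36 ± 0.15.

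**Figure D4:**
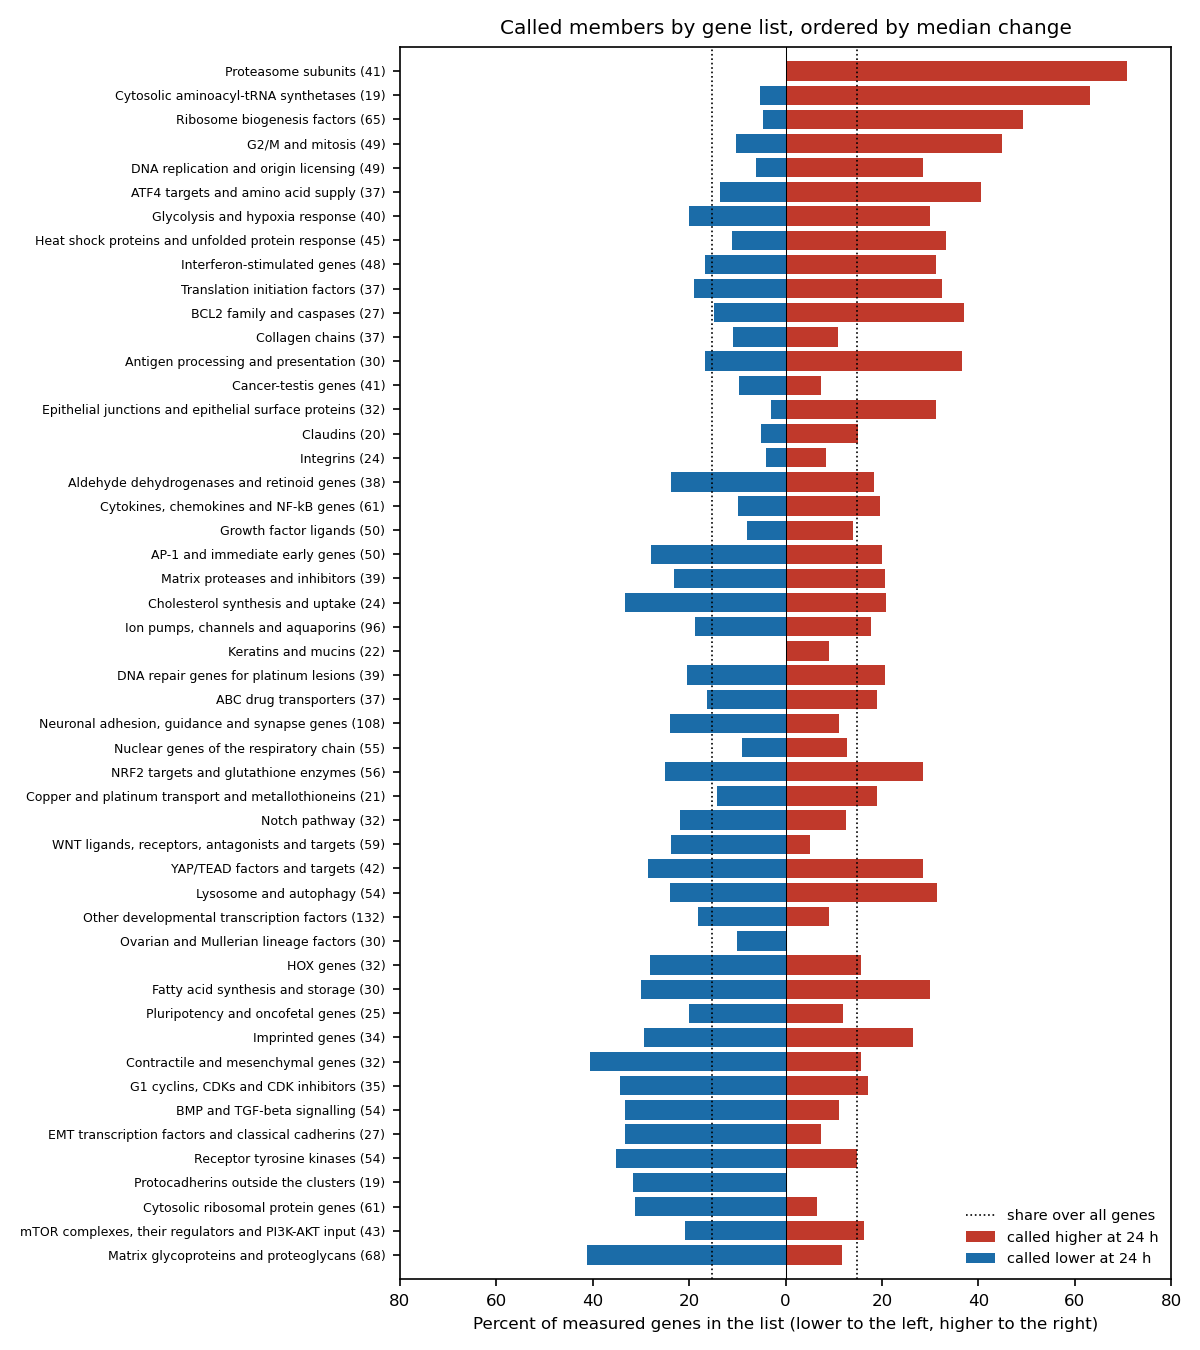
Percent of the measured genes of each list plotted, which are not all lists fitted (number in brackets) called higher (red, to the right) or lower (blue, to the left) at 24 h, ordered by the median change of the list; dotted lines mark the share over all genes, 14.9% higher and 15.3% lower. Proteasome subunits (29 of 41 higher) have the highest median of the lists plotted, and matrix glycoproteins and proteoglycans (28 of 68 lower) the lowest.

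In the WNT pathway, 3 of 59 genes rose and 14 fell, a share of 28.8% called that is near the 30.1% of all genes. Beside DKK1, the antagonist genes SFRP1 (9.33 and 9.38 untreated, 6.34 and 6.81 at 24 h) and WIF1 (8.55 and 8.73 against 5.91 and 6.06) fell. Among receptors, FZD8 fell by 2.15 and FZD6 rose from 4.75 and 4.72 to 8.03 and 7.47, and RSPO3, a ligand that amplifies WNT signals, fell by 4.43. The 14 became 9 without untreated replicate 1, and the 3 became 1 without untreated replicate 2 or 24 h replicate 1 and 5 without the A2780CP20 arrays. In the Notch pathway, 4 of 32 rose and 7 fell, a share of 34.4% called that is near the 30.1% of all genes. The target HES1 fell from 9.14 and 9.19 to 7.50 and 7.57 and the target HEY1 rose from 8.43 and 8.45 to 9.48 and 9.52. The 4 became 2 without untreated replicate 2.

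Of 54 genes of BMP and TGF-beta signalling, 6 rose and 18 fell (44.4% called, against 30.1% of all genes). The ligand genes BMP5 (9.45 and 9.48 untreated, 5.30 and 4.88 at 24 h), TGFB2 (9.20 and 9.16 against 6.21 and 6.25) and BMP7 (7.89 and 7.92 against 5.90 and 6.39) fell, and the co-receptor gene TGFBR3 by 1.67. The BMP antagonist gene NOG fell from 8.15 and 8.08 to 6.43 and 5.81. The ID genes, direct targets of BMP signals that encode inhibitors of bHLH factors, rose instead: ID1 from 8.57 and 8.53 to 10.61 and 10.62, ID2 by 1.26 ± 0.09, ID3 by 0.99 ± 0.09 and ID4 by 0.88 ± 0.10. SMAD9, a transducer of BMP signals, rose by 1.25 ± 0.15. The ID genes also measured higher on the 48 h arrays than on untreated ones, ID1 at 10.82 and 10.75 and ID2 at 10.62 and 10.72, unlike the ligands, of which BMP5 stood at 8.87 and 9.02 at 48 h.

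Of 54 receptor tyrosine kinase genes, 8 rose and 19 fell. EPHA7 (9.47 and 9.38 untreated, 5.44 and 5.17 at 24 h) and ERBB4 (9.60 and 9.70 against 6.57 and 6.31) had large falls, as did the collagen receptor DDR2 (-1.84 ± 0.11), while DDR1, its epithelial relative, rose from 7.05 and 7.13 to 8.72 and 9.04. Among 50 growth factor ligands, 7 rose and 4 fell (22.0% called, under the share of all genes). LIF, a cytokine of stem cells, rose from 5.51 on both arrays to 7.35 and 7.73, FGF2 by 1.78 ± 0.10 and the ERBB ligand gene HBEGF by 1.07 ± 0.17, and FGF18 fell by 2.38. The 4 became 2 without untreated replicate 1. In YAP/TEAD factors and targets, 12 of 42 rose and 12 fell (57.1% called). Beside ANKRD1 and VGLL3, MYOF rose by 2.71 ± 0.12, and YAP1 itself was at -0.99 ± 0.10. Of 50 AP-1 and immediate early genes 10 rose and 14 fell (48.0% called). JUN rose from 5.97 and 5.78 to 8.01 and 7.91 and EGR1 from 8.44 and 8.35 to 10.01 and 10.13, while the MAPK-induced genes ETV1 and SPRY4 fell by 3.35 and 2.99 and their relative SPRY2 rose by 1.97 ± 0.09. The 10 became 6 without untreated replicate 2 or 24 h replicate 1.

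Of 32 HOX genes, which record position along the body axis, 5 rose and 9 fell (43.75% called). The 3 most 5′ measured members of the HOXC cluster, HOXC11 (9.48 and 9.47 untreated, 5.57 and 5.78 at 24 h), HOXC12 (-2.50 ± 0.13) and HOXC13 (-2.60 ± 0.09), fell together, while in the HOXB cluster HOXB4, HOXB8 and HOXB9 rose by 1.13 ± 0.12, 0.80 ± 0.09 and 0.72 ± 0.12 and HOXB13 fell by 1.25. Of 132 other developmental factors, 12 rose and 24 fell (27.3% called, under the 30.1% of all genes). PAX6, a factor of eye and brain, rose from 5.80 and 5.77 to 8.81 and 9.32. LHX8 (10.20 and 10.23 against 6.68 and 6.80), DLX1 (11.08 and 11.09 against 7.96 and 7.91) and TFAP2A (8.97 and 9.03 against 5.85 and 5.56), factors of forebrain and neural crest, fell.

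LIN28A, which blocks let-7 maturation and is a marker of embryonic cells, measured 9.56 and 9.65 untreated and 6.24 and 6.23 at 24 h, and TRIM71, an embryonic RNA regulator, was at -0.88 ± 0.09. Of 25 pluripotency and oncofetal genes, 3 rose and 5 fell, and the 5 became 3 without any 1 of the 4 arrays and the 3 became 1 without untreated replicate 2 or without 24 h replicate 1 or 2. Of these 25 genes 32.0% were called, near the 30.1% of all genes. Imprinted genes moved both ways, 9 of 34 higher and 10 lower (55.9% called). ZDBF2 rose from 4.76 and 4.84 to 7.98 and 8.04, and the neighbours PEG10 and SGCE rose by 2.10 ± 0.15 and 1.20 ± 0.10, whereas MEST, on the same chromosome 7, fell by 4.96. Of 108 neuronal adhesion, guidance and synapse genes, 26 fell and 12 rose, and the 12 became 7 without untreated replicate 2 or 24 h replicate 1. Of these 108 genes 35.2% were called, near the 30.1% of all genes. UCHL1, a neuronal deubiquitinase, fell from 9.58 and 9.75 to 5.98 and 6.06, and SLIT2, a guidance ligand, rose from 6.68 and 6.76 to 10.25 and 10.27. In a list of 19 protocadherins and related large cadherins the 6 called members fell (31.6% called), PCDH7 and PCDH10 by 4.22 and 3.79.

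Immune response genes expressed by the tumour cells also moved both ways. Of 48 interferon-stimulated genes, 15 rose and 8 fell (47.9% called, against 30.1% of all genes). The sensor genes fell, IFIH1 (10.30 and 10.28 untreated, 5.87 and 5.55 at 24 h) and RIGI (7.27 and 7.39 against 6.18 and 6.33), as did IFIT1, which binds foreign RNA (-1.60 ± 0.08). USP18, a brake on interferon signalling, rose from 7.90 and 7.92 to 9.59 and 9.48. Of 30 antigen processing genes, 11 rose and 5 fell (53.3% called). The largest rise was in ERAP2 (4.91 and 4.37 untreated, 7.17 and 6.99 at 24 h). The immunoproteasome subunit gene PSMB9 (7.09 and 6.92 against 9.07 and 9.16) and its neighbour TAP1, the peptide transporter (1.80 ± 0.10), rose too. The 8 became 5 without untreated replicate 2 or without 24 h replicate 1 or 2, and the 5 became 2 without untreated replicate 2 and 3 without 24 h replicate 1 or 2. Of 61 cytokine and NF-kB genes, 12 rose and 6 fell, and the 29.5% called is near the share of all genes. IL1RAP, a co-receptor for interleukin 1, rose from 6.95 and 6.98 to 10.74 and 10.71, the receptor gene TNFRSF19 from 6.47 and 6.40 to 10.56 and 10.64 and the chemokine gene CXCL1 by 2.35 ± 0.12, and the adhesion gene VCAM1 fell from 8.50 and 8.49 to 5.36 and 5.16.

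Genes of drug handling included large changes in both directions. ABCB1, the multidrug efflux pump P-glycoprotein, measured 4.88 and 4.86 untreated and 8.31 and 8.05 at 24 h (3.31 ± 0.12, adjusted p = 1.94e-07), and ABCA5 rose by 1.72 ± 0.10. The peroxisomal transporter gene ABCD2 (-2.79 ± 0.14) and the efflux pump gene ABCC4 (-0.85 ± 0.09) fell. Of 37 ABC transporter genes, 7 rose and 6 fell, and 35.1% were called, close to the share of all genes. ATP7B, a copper exporter linked to platinum resistance, fell from 8.11 and 7.98 to 7.04 and 6.64, while the copper importer gene SLC31A1 measured 10.43 and 10.14 against 10.36 and 10.44 and was not called (adjusted p = 0.532).

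Of 56 NRF2 targets and glutathione enzymes, 16 rose and 14 fell (53.6% called, against 30.1% of all genes). The aldo-keto reductase genes AKR1C1 (-3.06), AKR1C2 (-2.64) and AKR1C3 (-4.72), near-identical relatives, fell. MGST1, a membrane glutathione transferase, rose from 3.49 and 3.29 to 6.47 and 6.21, and the carbonyl reductase gene CBR1 from 6.24 and 5.92 to 8.63 and 9.01. GSTP1, the main glutathione transferase of many tumours, measured 11.95 and 12.01 untreated and 12.01 and 12.03 at 24 h and was not called. Aldehyde dehydrogenases diverged: ALDH1A1, a stem cell marker that makes retinoic acid, rose from 5.28 and 5.63 to 8.50 and 8.33, and the mitochondrial enzyme gene ALDH2 fell from 9.35 and 9.39 to 6.35 and 6.30. CRABP2, which carries retinoic acid to the nucleus, rose from 6.02 and 6.01 to 8.73 and 8.89. Of 39 DNA repair genes for platinum lesions, 8 rose and 8 fell (41.0% called). MSH6 (-1.21 ± 0.09) and ATM (-1.18 ± 0.13) were lower, and ERCC2 and ERCC3, helicases of TFIIH, were higher by 0.81 ± 0.11 and 0.78 ± 0.08. The 8 higher became 5 without untreated replicate 2 or 24 h replicate 1 and 4 without 24 h replicate 2.

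Markers of other cell types were examined in 6 lists, whose medians on 24 h replicate 2 ran from 5.12 (hepatocyte) to 6.56 (kidney tubule). On 24 h replicate 1, 5 of 19 immune, 4 of 14 endothelial, 2 of 16 muscle, 3 of 9 melanocyte, 7 of 13 hepatocyte and 2 of 11 kidney markers lay under 5.03. Of 14 endothelial markers limma called 0 (2 at an unadjusted p under 0.05), with 1 higher under quantile normalization, 1 lower without the A2780CP20 arrays, and 1 each way in the fit of only these groups. Of 16 muscle markers it called 0 (2 at an unadjusted p under 0.05), with 1 lower without the A2780CP20 arrays and in the fit of only these groups. The endothelial and muscle medians lay between 5.44 and 6.11 on the 24 h arrays, below the median probe set. Of 9 melanocyte markers, 3 fell, OCA2 (8.70 and 8.64 untreated, 6.14 and 6.10 at 24 h), TYRP1 (8.07 and 7.86 against 6.40 and 6.29) and SLC45A2 (-0.61 ± 0.10). Of 11 kidney tubule markers 2 rose, CLDN16 and the endocytic receptor gene CUBN (1.02 ± 0.13). Of 19 immune cell markers, PTPRC (CD45) rose but stayed at 4.48 and 4.54, under 5.03. The remaining called markers were 2 immune ones, lower, and 2 of 13 hepatocyte ones, higher, at changes of -0.60 to 0.68, and these became 0 or 1 with most single arrays left out. The part of any other cell type in these differences was not tested. The shares called were 33.3% of melanocyte, 18.2% of kidney tubule, 15.8% of immune and 15.4% of hepatocyte markers, against 30.1% of all genes.

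Genes that lie next to each other shared the direction of change in several regions. Expressed genes, those above the median gene in mean level, were ordered along each chromosome, and the median change of all expressed genes was subtracted from that of 25 neighbours. On chromosome 13 the tiles of 25 genes ran 0.11, 0.12, -0.21, -0.52, -1.03 and -0.77 from the first gene to the last. Expressed genes were called lower more often than the 15.3% of all genes. Counts of called genes in the tiles and windows are therefore not comparable with that share. In the lowest tile, from SUGT1 to UGGT2, 22 of 25 genes were called lower and 1 higher. The falls there ranged widely, from PCDH20 (-5.36), the heparan sulfate proteoglycan genes GPC5 (-3.35) and GPC6 (-2.52) and TDRD3 (-3.12) through the mitotic formin gene DIAPH3 (-1.42) and MIR17HG (-1.97), host of the miR-17-92 cluster, to the exosome nuclease gene DIS3 (-0.76). SPRY2 was the member called higher, and UCHL3 had a change of 0. In the next tile, from RAP2A to CUL4A, 21 of 25 were lower and none higher.

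A region of the same kind lay on chromosome 17, where the consecutive tiles from SNF8 to ENDOV ran -0.29, -0.33, -0.815, -0.275, -0.28, -0.29 and -0.42. From TRIM37 to MAP3K3 the median was -0.81, and 16 of 25 genes were called lower and none higher. The largest falls were in BCAS3 (-2.62), the phosphatase gene PPM1D (-1.90), the collagen receptor gene MRC2 (-1.88) and TANC2 (-1.82). RPS6KB1, the main S6 kinase gene, lies among them and measured 10.84 and 10.81 untreated and 10.65 and 10.56 at 24 h, a change that was not called. On chromosome 2, 16 of the 25 genes from LAPTM4A to HADHB were lower (median -0.61), the methyltransferase gene DNMT3A (-0.62) among them. The consecutive tiles of that chromosome from NOL10 to PELI1 ran -0.285, -0.42, -0.225, -0.335, -0.445 and -0.16. The highest window, from FBXW7 to HSP90AA6P on chromosome 4, reached 0.47.

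The range of window medians was wider at 24 h than between arrays of the same group. The SD over single genes was also larger for the change at 24 h (0.65) than between the 24 h arrays (0.17) or the untreated arrays (0.18). The wider range therefore does not by itself show that neighbours moved together. Over all 8652 windows the median ran from -1.03 to 0.47 at 24 h, from -0.12 to 0.10 between the untreated arrays and from -0.07 to 0.08 between the 24 h arrays. It ran from -0.21 to 0.14 for the 48 h arrays and from -0.53 to 0.43 for A2780CP20, each against the same untreated arrays. In the lowest tile of chromosome 13 and the window from TRIM37 to MAP3K3 on chromosome 17, A2780CP20 was at -0.29 and -0.25. Over all of chromosome 13 it was at -0.20. The replicates gave -1.01 and -0.98 for the lowest tile of chromosome 13 and -0.80 in both for the window from TRIM37 to MAP3K3. The regions were singled out for their values, so these numbers describe them and carry no test.

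**Figure D5:**
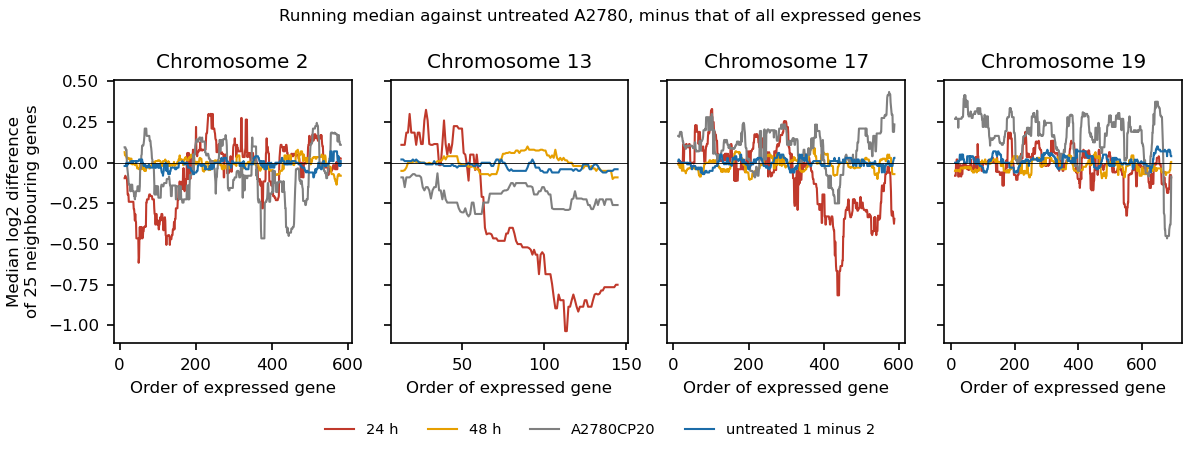
Running median of the log2 difference from untreated A2780 over 25 neighbouring expressed genes, minus that of all expressed genes (vertical axis), by gene order on chromosomes 2, 13, 17 and 19 (horizontal axis); lines stand for 24 h (red), 48 h (orange), A2780CP20 (grey) and 1 untreated array minus the other (blue). The red line falls stepwise along chromosome 13 to -1.03 and dips to -0.81 on chromosome 17, while orange and blue stay near 0 and the grey line lies below 0 along chromosome 13 (-0.29 in the lowest tile).

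The changes were set beside the other arrays of the series. Both 24 h arrays lay outside the range of all 6 other arrays for 6406 genes (34.8%), above it for 3458 and below it for 2948. The gap to the nearest other array was at least 1 log2 unit for 642 genes and at least 3 for 111. Both 48 h arrays lay outside the range of their 6 others for 2868 genes, but with a gap of at least 1 for only 4, and of at least 3 for none. For the A2780CP20 arrays these counts were 4588, 4 and 0.

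Against A2780CP20, 6206 genes (33.7%) were called by limma, 3280 higher and 2926 lower at 24 h. Against the 48 h arrays, 5702 (31.0%) were called, 2898 higher and 2804 lower. The comparisons share the 24 h arrays, so they are not separate evidence of each other. MUC15 measured 4.74 and 4.83 in A2780CP20 and 4.97 and 4.91 at 48 h, and DKK1 11.63 and 11.60 in A2780CP20 and 12.46 and 12.44 at 48 h. In both genes the 48 h and A2780CP20 arrays lay close to untreated A2780 and the 24 h arrays alone were apart. TXNIP differed: it measured 9.16 and 8.99 at 24 h, 8.14 and 8.46 in A2780CP20 and 10.33 and 10.27 at 48 h, so its lowest level was not at 24 h. Against A2780CP20, the count of calls was 4012 without 24 h replicate 1 and 3995 without 24 h replicate 2, and against 48 h it was 3768 without 24 h replicate 1 and 3715 without 48 h replicate 2.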

How the data were processed

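The values analysed are the authors' deposited log2 intensities of 33297 probe sets on 8 arrays, rounded to 2 decimals and lying between 1.8 and 14.99. The log2 scale was read from that range. The submitters' processing notes name Partek, with no version or role. How background, normalization and probe summary were handled is unstated there and in the labels. Groups were taken from the sample titles.

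Probe sets with 1 gene symbol (19460) were kept, 1754 with several and 12083 unnamed were left out, and the probe set with the highest mean stood for each of 18417 genes. limma 3.58.1 in R 4.3.3 was fitted to all 8 arrays with 1 coefficient per group and empirical Bayes moderation (4 residual and 4.48 prior degrees of freedom), with two-sided tests and Benjamini-Hochberg adjustment. The number of arrays limits the precision. On simulated data 67 genes were changed by 0.5 log2, 67 by 1 and 66 by 2. The test recovered 31.3% of genes changed by 0.5 and 100% of those changed by 1, and called 12 unchanged genes. Far fewer genes were changed there than the 30.1% called in these data. The adjusted threshold was therefore stricter, and these shares do not give the power of the comparison.

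The members, the 57 gene lists and the tests were chosen with earlier results of these data known. Genes named were the 30 largest called, non-overlapping changes each way, up to 5 called members each way per list (or the 2 with the smallest p), and a fixed set of mTOR, cell cycle and platinum genes. Members of chromosomal windows, genes crossing the dim range and those with opposite changes at 48 h were named after their values were seen. That rule passes over small RNAs and unnamed loci. Gene order, gene types and promoters came from RefSeq GRCh38.p14, to which 18389 genes matched by gene number.

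Replicate numbers were not taken to pair the samples, since not every correlation was over 0.1: the deviations of same-numbered untreated and 24 h arrays correlated at 0.016, those of 24 h with A2780CP20 and 48 h at 0.039 and 0.002, and those among the other groups at 0.117 to 0.181. Some results are not reported here.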

Additional observations from a re-analysis of the deposited data

Results flagged for a closer look

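The 24 h and 48 h arrays differed for 5702 genes in the limma contrast of these groups, which is the test of the difference between their changes from untreated cells.

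In 9 genes limma called the changes from untreated cells in opposite directions at 24 h and 48 h, and the difference between the times was called as well. NOG, a BMP antagonist, measured 6.43 and 5.81 at 24 h, 8.15 and 8.08 untreated and 9.89 and 9.86 at 48 h, a difference of -3.76 between 24 h and 48 h. OCA2, a melanosome transporter, measured 6.14 and 6.10, 8.70 and 8.64, and 9.59 and 9.56 (difference -3.46). POU1F1, a pituitary factor, went the other way, from 8.83 and 8.96 at 24 h through 6.42 and 6.56 untreated to 4.93 and 5.31 at 48 h (difference 3.78). The differences were -2.21 for LTK, a receptor tyrosine kinase, -2.08 for SSBP3, a single-strand DNA-binding cofactor, -2.04 for RAB31, a vesicle GTPase, -1.78 for NR4A2, an orphan nuclear receptor, -1.27 for DLX3, a homeobox factor, and -1.14 for ACTN3, a muscle actinin. The groups did not overlap in any of these genes, which their choice by called differences made likely.

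Among the 12083 probe sets without a gene name, which entered no comparison above, limma called 1206 at 24 h versus untreated (9.98%), 15 of them at least 8-fold, with changes from -4.72 to 3.88.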

How the results depend on the processing

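The count of genes called at 24 h versus untreated (5551) was 5618 with quantile normalization, 5485 with median centring, 5504 without the dimmest 25% of genes, 5575 with the mean of probe sets, 5872 with an intensity trend, 6413 in the fit of only these groups, 6895 without the A2780CP20 arrays and 6291 over all probe sets, the last pair chosen after seeing the data. With the replicate number as a block it was 5642, and with it no count of genes or of list members moved by over 1.5 times. Among named genes it ended the calls of BUB1B, HLA-DPB1, RPL10 and TFCP2L1. With 1 array left out it ranged from 3621 to 3919, the higher genes from 1727 to 1914 and the lower from 1894 to 2005. The counts ranged from 3995 to 7088 against A2780CP20 (4446 with only those groups) and from 3715 to 3838 against 48 h. The percent higher among called genes stayed between 48.1 and 51.1 over the scalings.

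Of the 487 genes the naming rule took, 468 were called, and 393 of these kept their call under every setting that tested them. The other 75 lost it somewhere, and none of these had changed by more than 1.14. Signs turned only in genes that were not called: GSTP1 with quantile normalization (-0.00906), and, with single arrays left out, CDH1 (-0.09 to 0.18), KRT7 (-0.185 to 0.015), MUC16 (-0.225 to 0.025), KRT19 (-0.095 to 0.115), SLC31A1 (-0.03 to 0.26) and WT1 (-0.495 to 0.135). The cause was not tested. Background levels are not known for these arrays, which limits genes under 5.03.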
